A study of Drosophila melanogaster with 24 samples.

Results

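The Toll and Imd pathways are the main routes by which Drosophila turns the recognition of microbes into transcription of antimicrobial peptide genes, largely in the fat body, in blood cells (haemocytes) and in barrier epithelia. In the Toll pathway a protease cascade cleaves the cytokine Spatzle (spz), which binds the receptor Toll (Tl), and the signal removes the inhibitor Cactus (cact) from the NF-kappaB factors Dorsal (dl) and Dif. In the Imd pathway the adaptor imd passes a signal from peptidoglycan receptors to the caspase Dredd and to the kinase complex that contains Kenny (key), and the NF-kappaB factor Relish (Rel) is cleaved and enters the nucleus. The RING-finger protein dnr1 (defense repressor 1) inhibits Dredd. Toll signalling also acts in the ovary and embryo, where maternal spz, Tl, cact and dl products set the dorsal-ventral axis.

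These 10 genes were taken by name from the 16727 genes counted. They comprise 5 genes of the Toll branch (spz, Tl, cact, dl and Dif) and 5 of the Imd branch (imd, Dredd, key, Rel and dnr1). All 10 passed the filter on low counts in every comparison. They were listed by pathway, with earlier results of these data known. Among them dnr1 is a gene the study itself had named for its diet response in the bodies of both sexes, from the same libraries. The diet values of dnr1 below therefore describe a gene already picked on these samples and are not independent evidence.

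The flies were adults of the strain w1118, which carries a white-eye mutation, and the labels give sex, tissue and diet as the differences between groups. Males and females lived for 7 days on a regular diet (RD), a commercial fly food mix, or on a high-fat diet (HFD), the same food with 20% coconut oil, and RNA was sequenced from pooled heads or from pooled bodies without heads. The labels of all 24 libraries name flies of 5 to 7 days, in a note worded for the HFD, and the methods describe the flies of both diets as matched in age. By the methods the flies were already adult when the 7 days on the diets began, so the labels and the methods differ on age at collection. The labels give pools of about 100 heads or 10 bodies, while the methods give 15 bodies. There were 24 libraries, 3 for each of the 8 combinations of sex, tissue and diet, which the labels call biological replicates. Whole heads and bodies are mixtures of cell types, so fewer cells of a type and less RNA per cell cannot be told apart.

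Total counts were 13373820 to 25703778 per library. The main rhodopsin gene ninaE, a marker of photoreceptors, was at 19169 CPM (counts-per-million of the library) or more in all 12 head libraries and at 159 CPM or less in 11 of the 12 body libraries, the exception being male body RD 3 at 1091 CPM. Male body HFD 2 (correlations of log2 CPM of 0.956 and 0.962 with its replicates) and the male head HFD libraries (0.937 between replicates 2 and 3) stood further from their replicates than any female pair, for which the lowest value was 0.990. The pairs of RD male bodies (0.986 to 0.988) and those of male head RD 1 (0.980 and 0.987) also lay under that value. Several calls that turned on single libraries are also given without them.

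Levels were compared between genes in TPM (transcripts-per-million), which correct for transcript length. In RD female bodies cact was the highest at 207 ± 11.3 TPM (SD, n = 3), followed by key, the regulatory subunit of the kinase complex, at 89.3 ± 1.56 TPM. The next levels, of spz (79.3 ± 6.60 TPM) and Rel (72.5 ± 7.00 TPM), did not differ beyond their spread. At the low end Dif (17.0 ± 2.40 TPM) and imd (16.1 ± 2.48 TPM) overlapped, and dnr1 was lowest at 11.4 ± 0.579 TPM. On HFD the 10 genes ranged from 17.2 ± 4.80 TPM (dnr1) to 195 ± 8.41 TPM (cact).

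In RD male bodies key (65.4 ± 3.21 TPM), Rel (60.6 ± 10.8 TPM) and cact (53.0 ± 7.77 TPM) led and overlapped in their spread. They were followed by Dredd (42.3 ± 5.01 TPM), then by Dif, spz, dl and imd between 23.3 and 25.9 TPM and by dnr1 (16.7 ± 0.528 TPM), and the receptor Tl was the lowest of the 10 at 8.97 ± 0.506 TPM. In RD heads key (121 ± 15.3 TPM in males and 106 ± 6.25 TPM in females) and Rel (99.6 ± 15.4 and 118 ± 21.0 TPM) were among the highest, and cact led in females at 138 ± 9.46 TPM. The lower end in RD heads was held by imd (28.0 ± 7.66 TPM in males and 36.9 ± 4.81 TPM in females) and dl (29.8 ± 4.99 and 36.2 ± 1.75 TPM), whose spreads overlapped in each sex.

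On the dm6 assembly, arm 3R holds spz (27064990 to 27070070, minus strand), Tl (26799041 to 26842403, plus strand) and Rel (9044183 to 9047977, minus strand). Arm 2L holds cact (16313036 to 16326207) and the neighbours Dif (17413248 to 17433161) and dl (17436830 to 17450364), all on the minus strand. On arm 2R, also on the minus strand, lie imd (18409796 to 18413599), key (24785514 to 24787411) and dnr1 (22563152 to 22592964), and Dredd is on the X chromosome (633622 to 635545, minus strand). Exons of 6 of the 10 genes overlap an exon of a protein-coding gene on the opposite strand, the longest stretch being 252 bases of Dif shared with CG15141, 4.42% of the exon bases of Dif. For imd it is 40 bases (2.64%) shared with GstE9, whose median count over the 24 libraries was 1675.5, beside 177 to 697 counts of imd. The strand setting of the counting is not given in the sources used here, so reads from such stretches could belong to either gene.

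**Figure D1:**
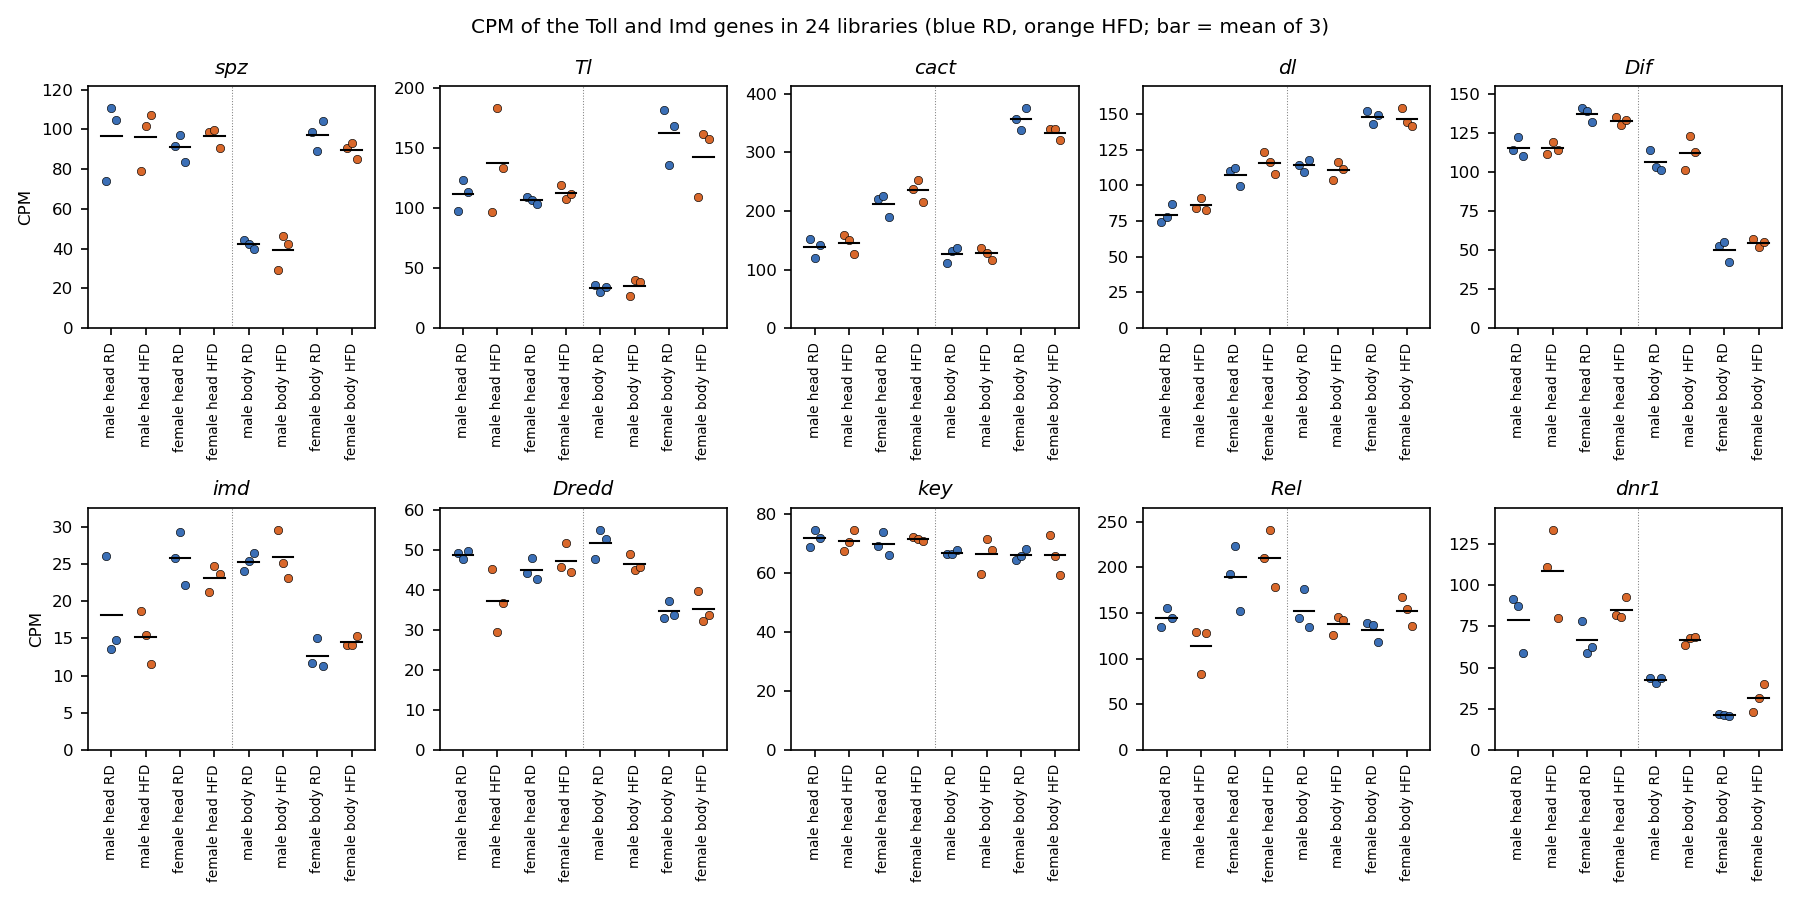
CPM of the 10 genes (1 panel each, vertical axis from 0) in each of the 24 libraries, grouped along the horizontal axis by sex, tissue and diet, with points for libraries and bars for means of 3. In male bodies Tl lies at 26.9 to 40.4 CPM, under every other library, and in bodies of both sexes the HFD points of dnr1 sit above its RD points.

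The first question was whether HFD changed the expression of these genes. With edgeR's quasi-likelihood test within each sex and tissue, 0 of the 10 had an adjusted p under 0.05 in male heads, male bodies, female heads or female bodies. Few genes of any kind passed: 0% of 10175 tested in male heads, 0% of 12935 in male bodies, 0.00983% of 10175 in female heads and 0% of 10282 in female bodies. At an unadjusted p under 0.05 there were 0 of the 10 in male heads, 1 in male bodies (dnr1), 1 in female heads (dnr1) and 2 in female bodies (dnr1 and Rel), against 1.42%, 3.79%, 2.76% and 3.48% of all genes tested. DESeq2 called 1 of the 10, dnr1, in male bodies and 0 in the other comparisons, and limma-voom called 0 in each. The medians over the 10 genes were 0.02, -0.01, 0.08 and 0.05 on the log2 scale, beside -0.02, 0.03, -0.01 and 0.00 over all genes tested.

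The gene with the largest diet difference among the 10 was the Imd inhibitor dnr1. In male bodies it was at 63.9, 68.1 and 68.4 CPM on HFD and at 43.6, 40.4 and 43.8 CPM on RD. In female bodies it was at 23.0, 31.4 and 39.8 CPM on HFD and at 21.6, 20.9 and 20.3 CPM on RD. The diets did not overlap in either sex, but the HFD female bodies spread widely and the lowest of them, HFD 2, lay close to the RD libraries. In male bodies the log2 fold change was 0.64 (SE 0.10, unadjusted p = 0.000411 and adjusted p = 0.529 in edgeR), a fold of 1.56, and dnr1 ranked 9 of 12935 genes by unadjusted p. In female bodies it was 0.63 (SE 0.20, unadjusted p = 0.0149 and adjusted p = 0.936 in edgeR), a fold of 1.55.

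In female heads dnr1 was at 82.1, 80.5 and 93.2 CPM on HFD and at 78.6, 59.1 and 62.5 CPM on RD, again without overlap. In male heads it was at 111, 134 and 80.3 CPM on HFD and at 91.7, 87.2 and 58.7 CPM on RD. Thus 11 of the 12 HFD libraries lay above all RD libraries of their own sex and tissue, the exception being male head HFD 4. That library also had the lowest ninaE of the heads and the testis gene dj at 11.6 CPM, against 0.552 to 1.88 CPM in the other male heads, and the part of this in its dnr1 value was not tested. The log2 fold change was 0.35 (SE 0.11, adjusted p = 0.9999 in edgeR) in female heads and 0.48 (SE 0.27, adjusted p = 0.809) in male heads. HFD libraries lay above all RD libraries for 2.87% of the genes tested in male bodies, 3.95% in female bodies, 3.75% in female heads and 2.53% in male heads.

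With both sexes in the fit, the diet difference of dnr1 was 0.61 (SE 0.11, adjusted p = 0.203 in edgeR) in bodies and 0.42 (SE 0.15, adjusted p = 0.779) in heads, and 0% of 13425 and 0% of 10527 genes tested were called. In bodies dnr1 ranked 6 by unadjusted p. DESeq2 called it in male bodies (adjusted p = 0.000885) and in the body fit over both sexes (adjusted p = 0.000600), where edgeR also called it without female body HFD 2 (0.69, adjusted p = 0.0258). In female bodies alone the estimate ran from 0.41 without HFD 4 to 0.82 without HFD 2 and was not called.

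The diet effect on dnr1 was also compared between groups. The difference between males and females was 0.07 (95% interval -0.43 to 0.56) in bodies and 0.13 (-0.55 to 0.80) in heads. The difference between heads and bodies was 0.00 (-0.73 to 0.73) in males and -0.26 (-0.79 to 0.26) in females. In the male fit the median of all genes was itself 0.19, and -0.04 to 0.19 over the scalings, so that dnr1 lay at -0.19 relative to it. In these 4 tests edgeR called 0 of the 10 genes, with 0 at an unadjusted p under 0.05, and 0% of all genes. Differences of dnr1 within these intervals were not excluded.

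The protein that dnr1 inhibits is Dredd, and their levels are set side by side here with no test. In male bodies there were 0.626, 0.728 and 0.720 dnr1 transcripts for each Dredd transcript (ratio of TPM) on HFD and 0.440, 0.352 and 0.399 on RD. In female bodies the ratio was 0.279, 0.468 and 0.567 on HFD and 0.316, 0.270 and 0.290 on RD. The diets did not overlap in male bodies and overlapped in female bodies.

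Among the other 9 genes the estimated diet differences were smaller. In male bodies the log2 fold changes ran from -0.16 (Dredd) to 0.07 (Dif), in female heads from -0.16 (imd) to 0.15 (cact), in female bodies from -0.14 (Tl) to 0.25 (Rel) and in male heads from -0.37 (Dredd) to 0.33 (Tl). Their 95% intervals reached from -1.02 to 0.99 in male heads, the widest of the 4, and from -0.52 to 0.44 in male bodies.

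The factor Rel was the second gene of the 10 with an unadjusted p under 0.05. In female bodies it was at 168, 154 and 135 CPM on HFD and at 139, 137 and 119 CPM on RD, with HFD 4 inside the RD range. Its log2 fold change of 0.25 (SE 0.10, unadjusted p = 0.0424 in edgeR) had an adjusted p of 0.936.

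In male heads Rel and its upstream caspase Dredd had lower values on HFD. Dredd was at 45.4, 29.4 and 36.7 CPM on HFD and at 49.1, 47.8 and 49.6 CPM on RD (-0.37, SE 0.20, unadjusted p = 0.108 in edgeR). Rel was at 129, 83.1 and 128 CPM on HFD and at 134, 156 and 144 CPM on RD (-0.33, SE 0.22, unadjusted p = 0.176 in edgeR). The diets did not overlap for either gene, as for 4.36% of genes tested with lower HFD libraries, and male head HFD 3 was the lowest library for both.

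**Figure D2:**
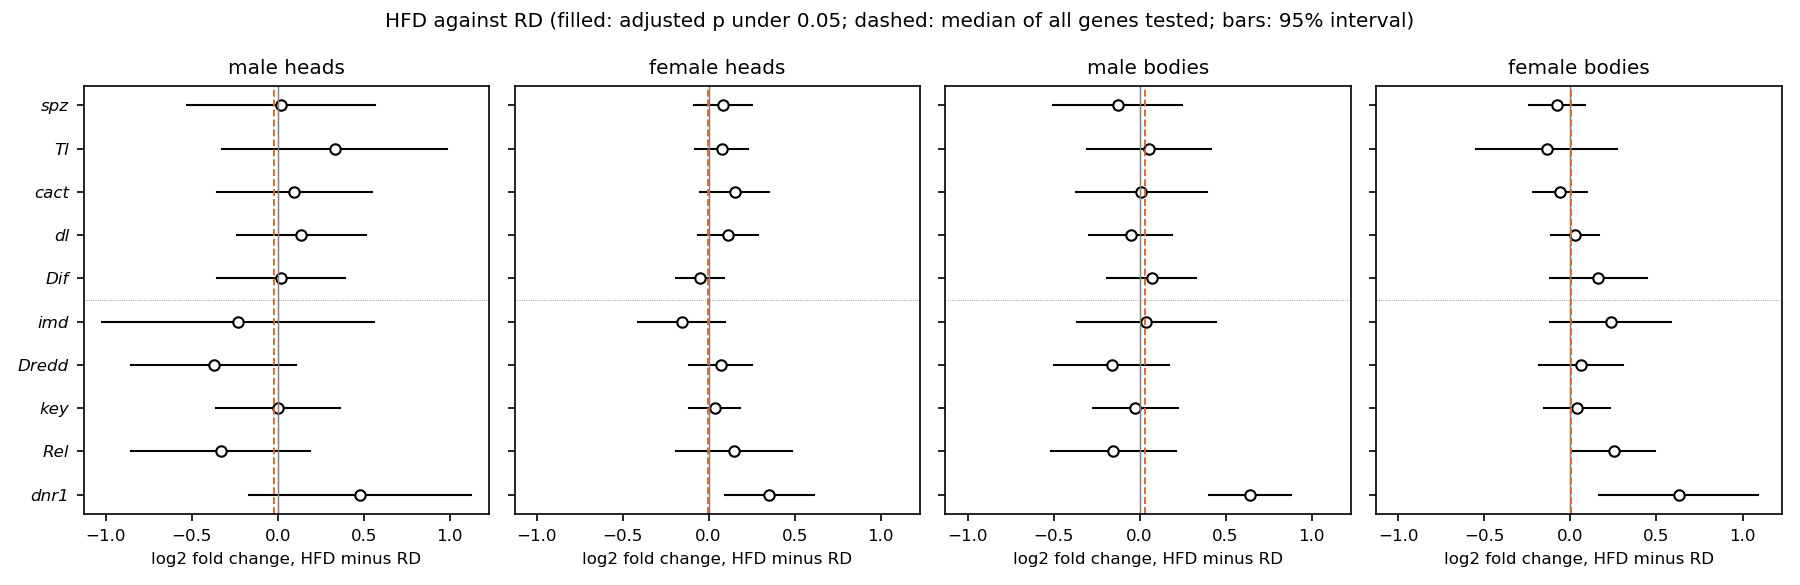
Log2 fold change of HFD against RD (horizontal axis) for the 10 genes (vertical axis) in 4 comparisons of 3 against 3 libraries. Points are edgeR estimates with 95% intervals, open because none had an adjusted p under 0.05, and the dashed line is the median of all genes tested. The estimate for dnr1 lies right of 0 in all 4 panels, from 0.35 to 0.64.

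The target genes of the pathways, here 20 antimicrobial peptide and Bomanin genes, gave 0 calls by diet among 14 tested in male heads, 16 in male bodies, 18 in female heads and 13 in female bodies. Over all genes tested 0%, 0%, 0.00983% and 0% were called in these comparisons. In female bodies the estimates of all 13 target genes tested were above 0, with a median of 0.82 beside 0.00 over all genes. Of the 13, 6 reached an unadjusted p under 0.05 in edgeR, against 3.48% of all genes tested. A gene could pass the filter on low counts through its HFD libraries alone, so the set tested was not independent of the HFD level. The signs, the median and this count are therefore a description and add no support for a rise. Dpt, a diptericin (6.07, SE 2.05, unadjusted p = 0.0203 and adjusted p = 0.936 in edgeR), and Mtk, metchnikowin (4.72, SE 1.64, unadjusted p = 0.0228), led by p. Dpt ranged over 0.616 to 73.9 CPM on HFD and 0.146 to 0.754 CPM on RD, and Mtk over 0.396 to 30.8 and 0.194 to 0.605 CPM, so the diets overlapped for both. Eggshell markers (6 genes, none at 0) summed to 309.8 to 1531 CPM in HFD female bodies and 157 to 943 CPM in RD female bodies, and their part in these values was not tested.

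Over all 6 pathway lists, the targets included, edgeR called 0 genes by diet in any of the 4 comparisons, and DESeq2 and limma-voom called 0 in each as well. At an unadjusted p under 0.05 edgeR gave 0 of 65 genes tested in male heads, 2 of 70 in male bodies, 1 of 69 in female heads and 7 of 70 in female bodies, against 1.42%, 3.79%, 2.76% and 3.48% of all genes tested. DESeq2 gave 0, 5, 1 and 5, and limma-voom 0, 3, 1 and 3. The other lists held 22 upstream proteases, recognition proteins and adaptors of Toll, 13 Imd receptors and adaptors, 12 Imd negative regulators, 7 receptors related to Tl and 5 relatives of spz. The medians of the Imd negative regulators, the list closest in function to dnr1, were 0.21 in male heads, 0.12 in male bodies, 0.00 in female heads and 0.00 in female bodies. By unadjusted p the leading pair over all lists in male heads was zfh1, a transcriptional repressor (0.58, SE 0.26, unadjusted p = 0.0629 in edgeR), and spz4 (0.69, SE 0.31, unadjusted p = 0.0631). In male bodies it was the cecropin gene CecA2 (1.75, SE 0.38, unadjusted p = 0.00275 in edgeR, with 1.41 ± 0.478 CPM in HFD and 0.426 ± 0.0709 CPM in RD libraries) and Toll-9 (-0.62, SE 0.21, unadjusted p = 0.0213). In female heads it was the protease genes spirit (0.34, SE 0.13, unadjusted p = 0.0337 in edgeR) and SPE (-0.19, SE 0.08, unadjusted p = 0.0553), the latter encoding the enzyme that cleaves Spatzle. Midgut markers (8 genes, none at 0) summed to 494 to 5182 CPM in HFD male bodies, the highest being HFD 2, and to 733 to 2067 CPM in RD male bodies, and their part in the male body values was not tested.

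The second question was how the pathways differed between males and females. In RD bodies 8 of the 10 genes passed the test, against 84.4% of 13004 genes tested, so the count was near the background. The libraries of the sexes did not overlap for 8 either, against 86.6% of genes. The receptor Tl was at 36.3, 30.1 and 34.5 CPM in male and 182, 136 and 169 CPM in female bodies (-2.38, SE 0.14, adjusted p = 1.85e-07 in edgeR). The inhibitor cact was at 111, 131 and 137 CPM in males and 357, 338 and 375 CPM in females (-1.60, SE 0.13, adjusted p = 2.58e-06), and the ligand spz at 44.2, 42.5 and 40.0 CPM in males and 98.4, 88.9 and 104 CPM in females (-1.30, SE 0.11, adjusted p = 2.95e-06). For all 3 genes every male library lay under every female one.

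The NF-kappaB factors of the Toll branch differed in opposite directions. In RD bodies dl was at 115, 109.6 and 118 CPM in males and 152, 143 and 149 CPM in females (-0.48, SE 0.10, adjusted p = 0.00127 in edgeR). Its neighbour Dif, which serves Toll-dependent immunity in adults, was at 114, 103 and 101 CPM in males and 52.6, 55.5 and 42.6 CPM in females (0.98, SE 0.12, adjusted p = 3.53e-05). The sexes did not overlap for either gene.

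In the Imd branch imd, dnr1 and Dredd were higher in RD male bodies. The adaptor imd was at 24.1, 25.5 and 26.5 CPM in males and 11.7, 15.04 and 11.3 CPM in females (0.90, SE 0.15, adjusted p = 0.000386 in edgeR). The inhibitor dnr1 was at 43.6, 40.4 and 43.8 CPM in males and 21.6, 20.9 and 20.3 CPM in females (0.92, SE 0.10, adjusted p = 1.95e-05). The caspase gene Dredd differed less (0.48, SE 0.12, adjusted p = 0.00356), and the sexes overlapped for none of these genes, while key (-0.08, SE 0.09) and Rel (0.12, SE 0.14) did not pass.

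The median of all genes tested was itself 0.40 in RD bodies, and 0.24 to 0.46 over the scalings tried. Relative to that median the differences were -2.78 for Tl, -1.71 for spz, with cact between them, -0.88 for dl, -0.48 for key and -0.29 for Rel, and 0.58 for Dif, 0.52 for dnr1, 0.50 for imd and 0.08 for Dredd. These signs held under every scaling, whereas the unshifted estimate of Rel ran from -0.05 to 0.16.

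On HFD, 8 of the 10 were called in bodies, against 75.6% of 13018 genes tested, and the libraries of 8 did not overlap, against 79.8%. The median of all genes was 0.23, and 0.09 to 0.40 over the scalings. Lower in males were Tl (-2.23, SE 0.21), cact (-1.58, SE 0.15), spz (-1.41, SE 0.16) and dl (-0.61, SE 0.11), and higher were dnr1 (0.88, SE 0.21), Dif (0.83, SE 0.12) and imd (0.65, SE 0.19). Without female body HFD 2 or HFD 3 the adjusted p of imd in edgeR was 0.0501 or 0.0581. Rel was called as well (-0.35, SE 0.13, adjusted p = 0.0391 in edgeR), but the sexes overlapped and the call was lost without any 1 of male body HFD 2, HFD 3 or HFD 4 or female body HFD 2 or HFD 3 (adjusted p up to 0.255). Dredd did not pass (0.20, SE 0.15, adjusted p = 0.258) although its sexes did not overlap. Relative to the median the differences were -2.46 for Tl, -1.81 for cact, -1.63 for spz, -0.84 for dl, 0.66 for dnr1, 0.60 for Dif and 0.42 for imd, with signs that held under every scaling.

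Most organ markers also differed between male and female bodies, while the ranges of the fat body and midgut sums overlapped. Ovarian germline markers (8 genes) summed to 2609 to 3065 CPM in the 6 female and 1118 to 1353 CPM in the 6 male body libraries, with osk itself at 0.918 CPM or less in males. Testis markers (10 genes) summed to 2221 to 3307 CPM in male and 2.67 to 4.46 CPM in female bodies, and accessory gland markers (6 genes, of which Acp95EF was at 0 throughout) to 3828 to 7036 CPM in male bodies and 0.194 CPM or less in female bodies. Haemocyte markers (7 genes, none at 0) summed to 184 to 217 CPM in males and 287 to 309 CPM in females. Fat body markers (9 genes, yolk protein genes included) summed to 2676 to 4481 CPM in males and 4105 to 5819.8 CPM in females. Flight muscle markers (6 genes, none at 0) summed to 3489 to 5169.6 CPM in males and 1542 to 2064 CPM in females, and midgut markers (8 genes, none at 0) to 494 to 5182 and 2895 to 4647 CPM. The part of these tissues in the sex differences of the 10 genes was not tested.

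**Figure D3:**
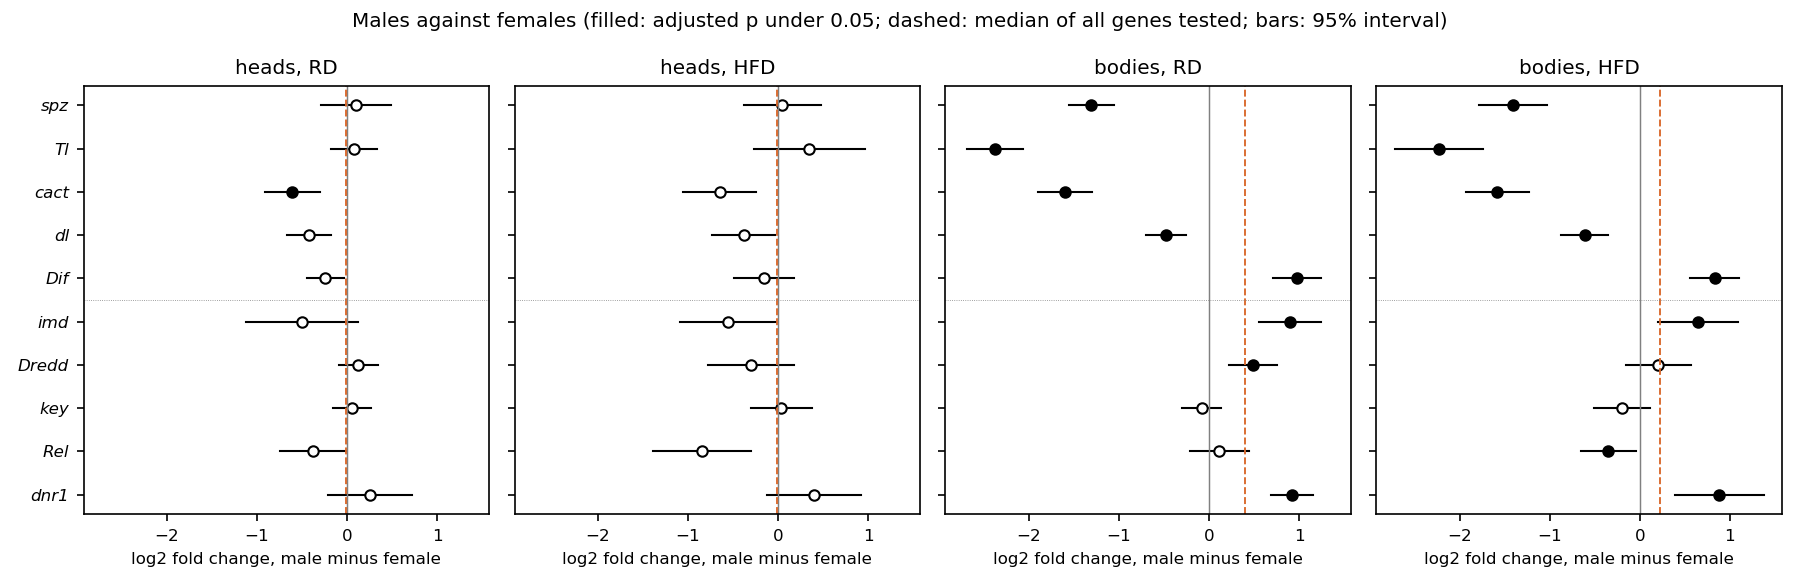
Log2 fold change of males against females (horizontal axis) for the 10 genes (vertical axis) in heads and bodies on each diet, 3 against 3 libraries a panel. Points are edgeR estimates with 95% intervals, filled where the adjusted p was under 0.05, and the dashed line is the median of all genes tested. In bodies spz, Tl, cact and dl lie left of 0 and Dif, imd and dnr1 right of it, while in heads cact on RD is the single filled point.

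The balance of dl and Dif was compared within libraries, where scaling between libraries has no effect. The share of dl in dl plus Dif transcripts (TPM) was 47.7% ± 1.75 in the 6 male and 71.3% ± 2.31 in the 6 female body libraries (SD, n = 6 each), a difference of -23.7 percentage points (exact two-sided permutation test, p = 0.00216, the smallest that 6 against 6 allows). Every male library (45.6% to 50.7%) lay under every female one (69.4% to 75.6%). This p adds no support, because dl and Dif each already separated the sexes in these libraries, in opposite directions. Between male and female bodies 84.4% of all genes tested were called on RD and 75.6% on HFD. Shares of other gene pairs were not computed. In head libraries the share was 36.0% to 41.1% in males and 40.0% to 44.6% in females, so dl was the lower of the pair in all 12.

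The inhibitor cact was set against its targets in the same way, as a description with no test. In female bodies there were 3.38 ± 0.266 cact transcripts for each dl plus Dif transcript on RD and 3.09 ± 0.128 on HFD (ratio of TPM, SD, n = 3). In male bodies the ratio was 1.05 ± 0.146 on RD and 1.05 ± 0.150 on HFD. Heads lay at 1.27 ± 0.193 and 1.30 ± 0.153 in males and 1.56 ± 0.0681 and 1.71 ± 0.131 in females, all under the female bodies.

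**Figure D4:**
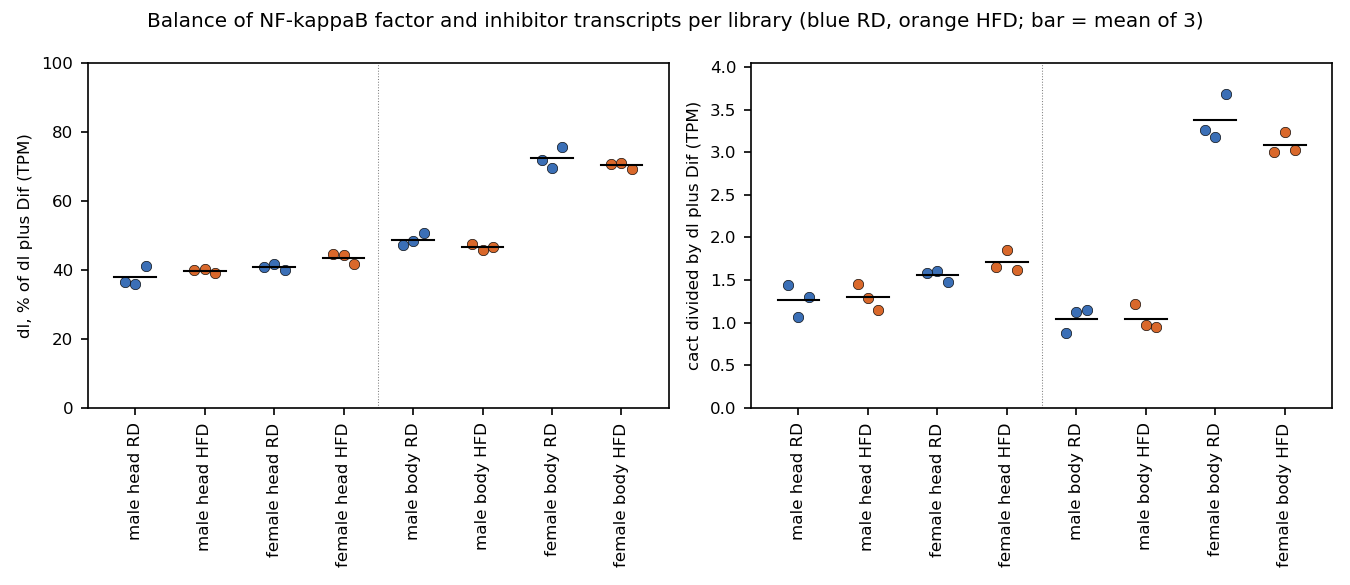
Share of dl in dl plus Dif transcripts (percent of TPM) and cact transcripts per dl plus Dif transcript (ratio of TPM) in each library, by sex, tissue and diet. Points are libraries and bars are means of 3. The 6 female body libraries stand above all others, at 69.4% to 75.6% and at up to 3.68.

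In heads the sexes differed less. On RD 1 of the 10 genes passed, against 7.76% of 10151 genes tested, and the libraries of 3 (cact, dl and Dif) did not overlap, against 35.5%. The gene called was cact, at 152, 119 and 142 CPM in male and 220.0, 225 and 190.0 CPM in female heads (-0.61, SE 0.13, adjusted p = 0.0395 in edgeR). The call was lost without any 1 of male head RD 2 or RD 3 or female head RD 2, RD 3 or RD 4 (adjusted p 0.0847 to 0.173), while without male head RD 1 the number of genes called was 4. The factor dl was at 74.0, 77.8 and 87.0 CPM in males and 109.9, 112 and 99.3 CPM in females (-0.42, SE 0.10, adjusted p = 0.0570). Dif (-0.24, SE 0.09, adjusted p = 0.130) and Rel (-0.38, SE 0.15, adjusted p = 0.160) were the others of 4 genes with an unadjusted p under 0.05, against 29.7% of all genes.

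On HFD 0 of the 10 passed in heads with edgeR, where 1.78% of 10281 genes did, and DESeq2 called 2. The libraries of 5 (cact, dl, Dif, imd and Rel) did not overlap, against 38.1%. Those with an unadjusted p under 0.05 in edgeR were cact (-0.65, SE 0.17, adjusted p = 0.120), Rel (-0.84, SE 0.23, adjusted p = 0.126), dl (-0.38, SE 0.15, adjusted p = 0.184) and imd (-0.55, SE 0.22, adjusted p = 0.189), 4 of the 10 against 25.3% of all genes. Rel was at 129, 83.1 and 128 CPM in male heads and 211, 242 and 179 CPM in female heads. Without male head HFD 2, cact, imd and Rel were called (adjusted p 0.0224, 0.0363 and 0.0262).

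Markers of the fat body also differed between male and female heads. The sum over 9 genes, yolk protein genes included, was 1931 to 4040.4 CPM in male heads, with Yp1 and Fbp1 at 0 in at least 1 male HFD library, and 11935 to 15610.0 CPM in female heads, with none at 0. Haemocyte markers (7 genes, none at 0) summed to 399 to 554 CPM in male heads and 574 to 662 CPM in female heads. Fat body sums without the yolk protein genes were not made, and the part of these markers in the head values was not tested.

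The third question was how heads differed from bodies. In RD females 8 of the 10 genes passed, against 86.9% of 10725 genes tested, and the libraries of these 8 did not overlap, against 88.4%. The factor Dif was at 141, 139.6 and 132 CPM in heads and 52.6, 55.5 and 42.6 CPM in bodies (1.50, SE 0.12, adjusted p = 3.91e-06 in edgeR), and dnr1 at 78.6, 59.1 and 62.5 CPM in heads and 21.6, 20.9 and 20.3 CPM in bodies (1.72, SE 0.11, adjusted p = 1.35e-06). Also higher in heads were imd (1.07, SE 0.16), Rel (0.58, SE 0.14) and Dredd (0.43, SE 0.09), and lower were cact (-0.70, SE 0.08), Tl (-0.55, SE 0.10) and dl (-0.42, SE 0.07), while spz (-0.05, SE 0.08) and key (0.13, SE 0.07) did not pass.

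On HFD the female comparison gave 7 calls, against 85.3% of 10794 genes tested, and the same 7 did not overlap, against 86.6%. Higher in heads were dnr1 (1.48, SE 0.19), Dif (1.32, SE 0.07), imd (0.71, SE 0.11), Rel (0.51, SE 0.12) and Dredd (0.47, SE 0.10). Lower were cact (-0.46, SE 0.09) and dl (-0.30, SE 0.08), and Tl did not pass (-0.31, SE 0.15, adjusted p = 0.0901 in edgeR).

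In RD males 4 of the 10 passed, against 73.5% of 13046 genes tested, and the libraries of 5 (these and key) did not overlap, against 77.6%. Tl was at 98.0, 124 and 114 CPM in heads and 36.3, 30.1 and 34.5 CPM in bodies (1.86, SE 0.14, adjusted p = 1.17e-05 in edgeR), and spz at 74.0, 111 and 105 CPM in heads and 44.2, 42.5 and 40.0 CPM in bodies (1.32, SE 0.17, adjusted p = 0.000218). For both genes every head library stood above every body library. The inhibitor dnr1 was higher in heads (1.02, SE 0.19, adjusted p = 0.00144) and dl lower (-0.39, SE 0.12, adjusted p = 0.0193). The call of dl was lost with total counts as the only scaling (adjusted p = 0.0880) and without any 1 of male body RD 1, male body RD 3, male head RD 1 and male head RD 2 (adjusted p 0.0507 to 0.276).

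In HFD males 4 of the 10 passed, against 63.3% of 12813 genes tested: Tl (2.45, SE 0.34), spz (1.78, SE 0.29), dnr1 (1.19, SE 0.27) and cact (0.68, SE 0.23, adjusted p = 0.0340 in edgeR). By the methods heads and bodies came from the same flies, but the labels do not say that equal replicate numbers mark 1 pool. Same-numbered libraries deviated together here (correlations of 0.75, 0.62 and 0.29) but not in RD males (-0.48, -0.29 and -0.05). With that number as a block 6 genes were called in edgeR, Dif (0.53, adjusted p = 0.0408) and key (0.59, adjusted p = 0.0333) being added. Without the block, DESeq2, RLE size factors and total counts each called 3 (Tl, spz and dnr1) and not cact, Dif or key. The libraries of 5 (Tl, spz, dnr1, dl and imd) did not overlap, against 69.3%. For cact, Dif and key they overlapped: Dif was at 112, 119.6 and 114 CPM in heads and 101, 123 and 113 CPM in bodies, and key at 67.2, 70.3 and 74.5 and 59.6, 71.5 and 67.6 CPM. The call of cact was also lost without any 1 of the 6 libraries (adjusted p 0.0590 to 0.225). The median of all genes ran from -0.35 to 0.03 over the scalings, and the estimate of dl from -0.23 to 0.13, so no direction is given for dl. The estimates ran from 0.32 to 0.68 for cact, 0.17 to 0.53 for Dif and 0.22 to 0.59 for key, all above 0. Their calls depended on the setting and their libraries overlapped, so no direction is given for these either. Relative to the median all 10 genes kept their sign under every scaling here. In the other comparisons of heads with bodies the medians lay between -0.20 and 0.00, and the sign of each called gene, taken relative to the median, held under every scaling.

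Tissue markers also differed between heads and bodies, except the fat body sum in males. Haemocyte markers (7 genes, none at 0) summed to 574 to 662 CPM in female heads and 287 to 309 CPM in female bodies, and to 399 to 554 and 184 to 217 CPM in males. Fat body markers (9 genes, yolk protein genes included) summed to 11935 to 15610.0 CPM in female heads and 4105 to 5819.8 CPM in female bodies. The range in male heads (1931 to 4040.4 CPM) overlapped that in male bodies (2676 to 4481 CPM). Of these genes Fbp1 was at 0 in at least 1 library of each body group and of HFD male heads, as was Yp1 in the latter. Ovarian germline markers (8 genes, of which nos and osk were at 0 in at least 1 male head library on each diet) summed to 303 to 332 CPM in female heads and 2609 to 3065 CPM in female bodies, and to 290.1 to 671 and 1118 to 1353 CPM in males. The part of these tissues in the head and body differences was not tested.

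**Figure D5:**
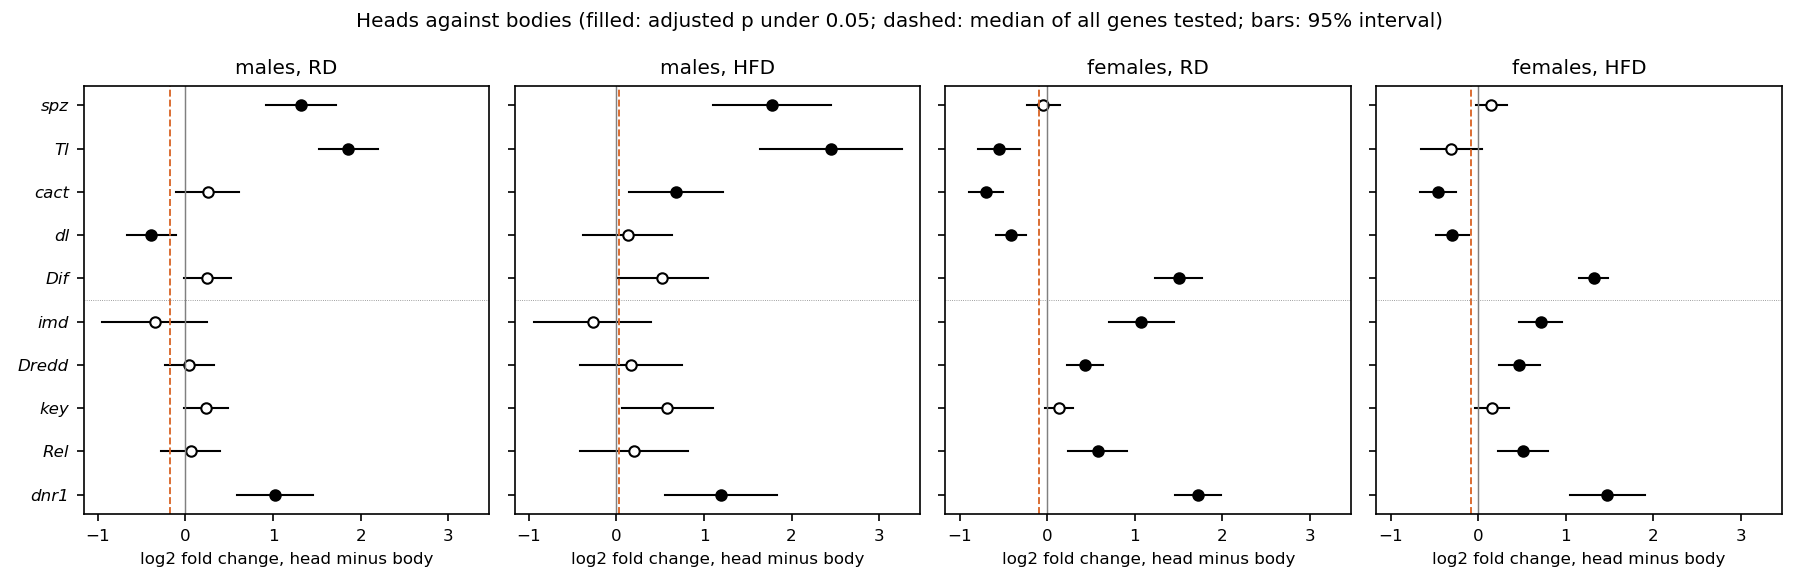
Log2 fold change of heads against bodies (horizontal axis) for the 10 genes (vertical axis) in males and females on each diet, 3 against 3 libraries a panel. Points are edgeR estimates with 95% intervals, filled where the adjusted p was under 0.05, and the dashed line is the median of all genes tested. In males spz and Tl lie right of 0 (1.32 to 2.45), and in females Dif, imd, Rel and dnr1 do (0.51 to 1.72).

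Whether the sex difference itself differed between heads and bodies was tested with an interaction term, male minus female in heads less the same in bodies. On RD 7 of the 10 genes passed, against 65.1% of 13458 genes tested, and on HFD 6, against 47.4% of 13524. The terms of Tl were 2.84 (SE 0.21) on RD and 2.36 (SE 0.36) on HFD, those of spz 1.80 (SE 0.24) and 1.23 (SE 0.26), and those of cact 1.36 (SE 0.18) and 0.74 (SE 0.21). Negative terms were found for Dif (-0.84, SE 0.17 on RD and -1.19, SE 0.18 on HFD) and imd (-1.04, SE 0.27 and -1.39, SE 0.29). The other genes called were key (0.52, SE 0.15) and dl (0.45, SE 0.16) on RD and Dredd (-0.70, SE 0.25) on HFD. With DESeq2 or with RLE size factors the RD terms of dl (-0.11) and key (-0.037) were below 0, and without any 1 of 10 libraries the call of Dredd was lost. The median term over all genes was -0.13 on RD and -0.54 on HFD, and over the scalings it ran from -0.69 to -0.13 on RD and from -0.59 to -0.33 on HFD. Relative to the median, which moved with the scaling, all 10 genes kept their signs under every scaling on both diets, dl and key included. The RD terms relative to the median were 2.97 for Tl, 1.93 for spz, 1.496 for cact, -0.71 for Dif and -0.91 for imd. On HFD they were 2.89 for Tl, 1.77 for spz, 1.28 for cact, -0.65 for Dif, -0.85 for imd and -0.16 for Dredd, so the term of Dredd lay close to that of the median gene.

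The other genes of the pathways are described by list. Among 22 upstream genes of Toll, 4 were higher in RD male than in RD female bodies and 11 lower, 15 called of 22 against 84.4% of all genes tested, with a median of -0.60 beside 0.40 over all genes. Lowest in males were snk (-4.91, SE 0.29, 0.309 ± 0.0801 CPM in males and 8.82 ± 1.51 CPM in females), gd (-4.27, SE 0.28) and ndl (-4.16, SE 0.18, 1.72 ± 0.250 and 28.9 ± 2.97 CPM), 3 proteases of the dorsal-ventral cascade of the egg. Highest were PGRP-SD (1.43, SE 0.22), SPE (1.41, SE 0.19, 75.6 ± 6.19 CPM in males and 26.7 ± 7.23 CPM in females) and grass (0.80, SE 0.20), which act in immune recognition and the immune protease cascade. On HFD 0 were higher and 12 lower, against 75.6% of all genes called, snk (-5.44), ndl (-4.64) and gd (-3.88) again being the lowest. The receptors related to Tl gave 4 higher and 0 lower of 7 on RD, against the same 84.4%, led by Toll-4 (1.09 to 1.36 CPM in males and 0 to 0.222 CPM in females), Toll-7 (2.76, SE 0.30) and Toll-6 (0.81, SE 0.24), and the Spatzle relative spz5 was higher too (2.58, SE 0.37).

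Of 13 Imd receptors and adaptors, 3 were higher in RD male bodies and 8 lower, 11 called of 13 and so near the 84.4% of all genes, with a median of -0.53 beside 0.40. Higher were the peptidoglycan recognition proteins PGRP-LF (1.64, SE 0.24), PGRP-LA (1.14, SE 0.16) and PGRP-LC (1.05, SE 0.16), the last being the main membrane receptor of the pathway, at 53.7 to 60.8 CPM in males and 19.8 to 32.0 CPM in females. Lowest were Tab2 (-1.66, SE 0.11), its partner kinase gene Tak1 (-1.58, SE 0.12) and the nuclear cofactor akirin (-1.53, SE 0.15). Of 12 Imd negative regulators 3 were higher and 8 lower, 11 called of 12 against the same 84.4%, with a median of -0.69. The deubiquitinase gene CYLD stood highest (2.71, SE 0.15, 262 ± 57.9 CPM in males and 37.1 ± 0.725 CPM in females), followed by pirk (1.18, SE 0.29) and trbd (0.78, SE 0.09), while POSH (-2.35, SE 0.11), zfh1 (-2.03, SE 0.13) and RYBP (-1.57, SE 0.11) were lowest.

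Of the target genes 9 of 15 tested were higher in RD male bodies and 3 lower, 12 called of 15 against 84.4% of all genes, with a median of 0.82 beside 0.40 over all genes. Highest in males were the cecropin gene CecA1 (7.72, SE 0.32, 40.0 ± 6.29 CPM in males and 0.168 ± 0.116 CPM in females), the attacin gene AttB (4.68, SE 0.45) and the diptericin gene DptB (4.14, SE 0.56). The lower genes were Drs, drosomycin (-3.85, SE 0.43, 34.8 ± 23.8 CPM in males and 469.7 ± 33.7 CPM in females), IM4 (-2.20, SE 0.28) and Def, defensin (-1.58, SE 0.42). On HFD 2 of 17 were higher, CecA1 (6.41, SE 0.60) and CecA2 (0.865 to 1.75 CPM in males and 0 to 0.0965 CPM in females), and 1 lower, Drs (-3.76, SE 0.76), 3 called of 17 against 75.6% of all genes.

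In heads edgeR called 4 of 66 genes of the lists tested between the sexes on RD, against 7.76% of all genes (DESeq2 8 and limma-voom 5), all 4 lower in males: the proteases Hayan (-1.27, SE 0.21) and modSP (-0.91, SE 0.19), the Toll adaptor Myd88 (-0.77, SE 0.13) and zfh1 (-0.74, SE 0.17). On HFD edgeR called 0 of 67 in heads, DESeq2 7 and limma-voom 0. At an unadjusted p under 0.05 edgeR gave 17 on HFD, against 25.3% of all genes. With edgeR no target gene was called on either diet, with medians of -0.73 on RD and -1.10 on HFD.

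Between heads and bodies the largest contrast in the lists was that of cad (Caudal), a gut transcription factor that restrains peptide expression there. It was at 0.167 ± 0.0445 CPM in RD male heads and 51.3 ± 0.739 CPM in bodies (-8.06, SE 0.21), and at 0.138 ± 0.0836 and 93.1 ± 10.8 CPM in females (-9.28, SE 0.20). Midgut markers (8 genes) summed to 12.1 CPM or less in head libraries and 494 CPM or more in body libraries, and their part in this difference was not tested. Among the receptors Toll-6 was higher in RD heads (3.32, SE 0.29 in males and 3.65, SE 0.12 in females) and PGRP-LA was too (1.52, SE 0.14 and 2.36, SE 0.14), while Tehao was lower (-1.99, SE 0.44 and -2.99, SE 0.36). In RD female heads 12 of 14 target genes tested were higher than in bodies, led by AttB (5.10, SE 0.71), Mtk (4.98, SE 0.36) and DptB (4.98, SE 0.82), and 2 lower, Drs (-3.47, SE 0.28) and Def (-1.06, SE 0.13), against 86.9% of all genes called. In RD male heads 8 of 15 were higher, among them Dro, drosocin (4.36, SE 1.43), BomBc1 (2.68, SE 0.60) and BomS1 (2.12, SE 0.29), and 1 lower, CecA1 (-6.72, SE 0.36), against 73.5% of all genes called. The proteases SPE (2.79, SE 0.20), grass (2.30, SE 0.17) and Hayan (2.29, SE 0.17) were higher in RD female heads, and ea (1.90, SE 0.44) and spirit (1.89, SE 0.43) in RD male heads.

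Each of the 10 genes was also matched over the 8 group means to the 8441 genes with a mean of at least 1 CPM in every group, by Pearson's r of log2(CPM + 1), as a description. The genes most like dnr1 were Kr-h1 (0.987), CG18619 (0.987), Ziz (0.981), CG12851 (0.971) and CR44662 (0.970). Those most like Tl were Sema-2a (0.999), RasGAP1 (0.999), GlcT-1 (0.997), MTA1-like (0.997) and fd68A (0.996), and those most like spz CG8301 (0.997), CG10188 (0.997), shg (0.997), CG2246 (0.996) and CG1847 (0.994). The lists were led by pck (0.991) and Clc (0.988) for cact, RpS29 (0.996) for dl, CG3308 (0.999) for Dif, CG14109 (0.987) for imd, CoVIIc (0.984) for Dredd, CG34227 (0.981) for key and CG11741 (0.981) for Rel. Among the 10 genes themselves spz and Tl were the closest pair (0.970), followed by Dif and dnr1 (0.882), and the 8 means share tissue, sex and diet.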

How the data were processed

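RNA from pooled heads or bodies of w1118 flies was sequenced by the authors as stranded mRNA libraries, read as pairs of 100 bases on an Illumina instrument and aligned with TopHat. The deposited values are raw read counts per gene, made by the authors with featureCounts on dm6 per their processing notes. The methods name a mouse annotation, but 12512 of the 16727 symbols counted were found in a table of Drosophila gene names. The strand setting and versions are not given in the sources used here. All count columns were mapped to samples (0 unmapped).

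Counts were filtered with filterByExpr, scaled by TMM and tested with edgeR 4.0.16 (quasi-likelihood F-test, R 4.3.3, limma 3.58.1), each comparison on its own groups, with Benjamini-Hochberg adjustment over all genes tested. A gene is called at an adjusted p under 0.05. SEs come from the F statistics. Printed CPM use TMM factors over all 24 libraries, whereas each test uses factors of its own libraries, so the 2 scales differ: for heads against bodies in HFD males the median over all genes was 0.03 in its own fit and -0.35 with all 24 libraries in 1 fit. TPM use the gene lengths of the count tables. Alternatives were DESeq2 1.42.0, limma-voom, RLE size factors, total counts, 2 other filters, all 24 libraries in 1 fit, a replicate block and leaving out each library. Tests were tried on simulated data with known changes.

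The members and the pathway and marker lists were chosen with earlier results of these data known. Pathway genes were named where they were among the 3 largest positive or negative called differences of a list with groups that did not overlap, and by the 2 smallest unadjusted p in diet comparisons without any. CecA2 and Toll-4 are given as CPM where a group held only a few counts.

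Replicate numbers were taken to pair samples only for heads against bodies on HFD, a choice that rested on these counts. The methods take heads and bodies from the same flies on both diets, and the labels do not say that equal numbers mark 1 pool. On HFD same-numbered libraries deviated together from their group means (r = 0.75, 0.62 and 0.29 in males and 0.11, 0.16 and 0.19 in females). On RD r was -0.48, -0.29 and -0.05 in males and -0.10, 0.04 and 0.17 in females. The labels call the replicates biological, and the p-values measure the spread between these pools.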

Additional observations from a re-analysis of the deposited data

Results flagged for a closer look

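The sex difference of these genes itself differed between heads and bodies, by a test of the interaction in edgeR (male minus female in heads less the same in bodies, log2 scale, 3 libraries in each of 4 groups). Over all genes tested 65.1% passed on RD and 47.4% on HFD, with median terms of -0.13 and -0.54. On RD the terms were 2.84 for Tl, 1.80 for spz, 1.36 for cact, 0.52 for key, 0.45 for dl, -0.84 for Dif and -1.04 for imd. With DESeq2 or RLE size factors those of dl (-0.11) and key (-0.037) were below 0, though still above the median term under the same scaling. On HFD the terms were 2.36 for Tl, 1.23 for spz, 0.74 for cact, -0.70 for Dredd, -1.19 for Dif and -1.39 for imd, that of Dredd being close to the median. The terms of Tl, spz, cact, Dif and imd passed on both diets. The sexes also differed in ovarian, testis and accessory gland markers in bodies. In heads they differed in fat body markers, yolk protein genes included. The part of these tissues in the terms was not tested.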

How the results depend on the processing

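The counts of the 10 genes called moved by over 1.5 times under few alternatives. DESeq2 called 1 by diet in male bodies and 1 in bodies of both sexes, and 2 between the sexes in heads on RD and 2 on HFD. With all 24 libraries in 1 fit the calls were 2 between RD heads of the sexes, 5 between HFD heads and 7 for heads against bodies in HFD males. With the replicate number as a block 4 were called between RD heads of the sexes, against 1 without it, though the numbers do not pair samples there. For heads against bodies in HFD males, where the numbers were taken to pair samples, 6 were called against 4. In HFD females the block left the count at 7. Leaving out 1 library gave 0 to 4 calls between RD heads of the sexes, 0 to 3 between HFD heads and 0 to 1 for the diet effect in bodies of both sexes.

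The RD interaction of sex and tissue reversed for dl (-0.11 with DESeq2, -0.11 with RLE size factors, -0.10 to 0.55 with 1 library left out) and for key (-0.037, -0.037 and -0.0080 to 0.61). Over the scalings the median of all genes itself ran from -0.69 to -0.13, and relative to it both genes kept their sign. The share of dl in dl plus Dif differed by -23.6 percentage points on RD alone and -23.7 on HFD alone, where 3 against 3 libraries allow no exact two-sided permutation p under 0.1. Over 69 results of single genes, 970 of 1062 alternative values kept direction and side of the threshold, 55 lost the call, 28 gained it and 9 reversed. The causes were not tested.

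With 3 libraries a group, the diet comparison of male heads did not exclude changes within its 95% intervals, which reached from -1.02 to 0.99 for the genes other than dnr1. Over all genes the calls between the sexes in heads rested on single libraries: 788 were called on RD, 56 to 5093 with 1 library left out, 1642 with DESeq2 and 3832 with the block, and 183 on HFD, 0 to 4338 with 1 left out, 1099 with DESeq2, 3853 with all libraries in 1 fit and 6 with the block.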
